A study of Mus musculus with 1 sample.

Results

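The genes described here encode the proteasome of mouse glia, its interferon-inducible variant and the proteins that cap, inhibit or assemble it. They were taken as the rows of the expression table whose symbol starts with Psm, a letter from a to g and a digit, which gave 50 of 23282 rows. The label held for 49 of them. The remaining row, Psmc3ip, encodes a partner of a meiotic recombinase and is no part of the proteasome, so it was kept out of all group medians. The table came from 1 RNA-seq library, labelled as control, of mixed glia grown from the ventral midbrain (VM) of ICR (CD-1) outbred mouse pups at postnatal day 5. The study set such cultures against cultures that received an inhibitor of the kinase SGK1, and the header of the control column names the solvent DMSO. The treatment label, worded alike for the whole study, also mentions toxins and does not say whether the control culture received them. Glia given the inhibitor were not analysed here. There was no replicate, so no value has an error between cultures and no test was made.

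Proteasomes degrade proteins that carry ubiquitin chains. A barrel called the 20S core holds the proteolytic sites inside, between outer rings of alpha subunits and inner rings of beta subunits, and a 19S particle at its end recognises, unfolds and feeds in the substrate. Each inner ring carries its active sites on the constitutive subunits Psmb6 (beta1, cutting after acidic residues), Psmb7 (beta2, after basic residues) and Psmb5 (beta5, after hydrophobic residues). Interferon-γ induces Psmb9, Psmb10 and Psmb8, which take these places in newly built cores. The resulting immunoproteasome is abundant in immune cells, and it favours peptides that fit class I histocompatibility molecules. In brain, microglia and reactive astrocytes are known to express it under inflammation.

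The promoters of the constitutive and inducible forms are shown first, because the forms are known to differ in how their transcription is induced. The sequences are RefSeq windows on GRCm38.p6 that run from 250 bases before a transcription start to 50 after it, 5′ to 3′ on the strand of the gene. Capitals mark an antioxidant response element (TGACNNNGC) in Psmb5 and Psmb6. In Psmb8 they mark a GAS element (TTCNNNGAA), the kind of site through which interferon-γ acts. In Psme1 they mark an interferon-stimulated response element or ISRE (GAAA, NN and GAAA in a row, here on the opposite strand). In Psmb9 they mark a GC box (GGGCGG) and a CCAAT box (CCAAT, on the opposite strand). GC boxes are marked in Psmb9 only. Psmb6 and Psme1 each also hold 1 GC box, left in lower case.
Psmb5 promoter, chr14:54617946-54618245, minus strand: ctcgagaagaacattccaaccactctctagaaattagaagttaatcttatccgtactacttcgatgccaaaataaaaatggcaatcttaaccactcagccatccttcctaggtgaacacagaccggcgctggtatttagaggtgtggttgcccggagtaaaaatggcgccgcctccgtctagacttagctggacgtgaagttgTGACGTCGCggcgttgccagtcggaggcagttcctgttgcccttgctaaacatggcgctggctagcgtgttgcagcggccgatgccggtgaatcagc
Psmb8 promoter, chr17:34197945-34198244, plus strand: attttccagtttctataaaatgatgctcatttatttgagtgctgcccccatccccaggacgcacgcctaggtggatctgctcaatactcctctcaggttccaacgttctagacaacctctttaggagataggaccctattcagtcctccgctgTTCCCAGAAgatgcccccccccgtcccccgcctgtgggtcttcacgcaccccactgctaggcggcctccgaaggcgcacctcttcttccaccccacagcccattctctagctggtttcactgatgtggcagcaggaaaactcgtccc
Psmb6 promoter, chr11:70525107-70525406, plus strand: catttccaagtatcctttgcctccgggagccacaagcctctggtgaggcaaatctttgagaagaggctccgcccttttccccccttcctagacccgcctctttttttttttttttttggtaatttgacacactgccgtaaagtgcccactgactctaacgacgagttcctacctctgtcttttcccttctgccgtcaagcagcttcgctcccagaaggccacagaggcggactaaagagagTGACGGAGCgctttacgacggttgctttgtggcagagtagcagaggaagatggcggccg
Psmb9 promoter, chr17:34187281-34187580, minus strand: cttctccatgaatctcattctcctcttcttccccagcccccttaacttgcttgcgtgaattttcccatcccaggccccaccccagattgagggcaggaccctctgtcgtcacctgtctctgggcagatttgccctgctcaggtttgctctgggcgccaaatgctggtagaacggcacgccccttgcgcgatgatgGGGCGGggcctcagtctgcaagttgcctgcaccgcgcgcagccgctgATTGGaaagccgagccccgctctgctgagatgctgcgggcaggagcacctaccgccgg
Psme1 promoter, chr14:55578244-55578543, plus strand: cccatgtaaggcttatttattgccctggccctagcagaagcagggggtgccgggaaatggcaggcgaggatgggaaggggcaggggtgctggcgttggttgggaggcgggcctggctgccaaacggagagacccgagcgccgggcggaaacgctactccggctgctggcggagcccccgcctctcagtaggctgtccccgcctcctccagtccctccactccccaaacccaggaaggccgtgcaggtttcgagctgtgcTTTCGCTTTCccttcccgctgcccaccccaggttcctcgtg

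The antioxidant response element of Psmb5 began 47 bases before the start and that of Psmb6 9 bases before it. The GAS element of Psmb8 began 97 bases before the start, and the ISRE of Psme1 10 bases after it. The window of Psmb9 shared 275 bases with that of Tap1, the peptide transporter gene that runs the other way, and it held neither an ISRE nor a GAS element. A match is a run of letters and not a binding site, and letters missing from a window say nothing of the factor.

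Windows were found for 42 of the 50 genes. Those of Psma8, Psmb1, Psmb2, Psmb7, Psmc3, Psmd3, Psmd7 and Psmg2 were missing. The 42 genes had 45 windows. A gene counted for a motif if any of its windows held it, whereas the share of all windows counts each window. The percentages set side by side therefore differ in unit. On either strand, the antioxidant response element was present in 6 of the 42 genes (14.3%) and in 12.4% of all 32851 windows. Beside Psmb5 and Psmb6 the genes were Psmc6, Psmd9, Psmd12 and Psme4. An ISRE was present in 5 genes (11.9%, against 3.44% of all windows), namely Psmb3, Psmd4, Psmd9, Psme1 and Psmg4. A GAS element was present in 3 genes (7.14%, against 8.3%), namely Psmb8, Psmd2 and Psmg1. GC boxes were present in 23 genes (54.8%, against 35.7%) and CCAAT boxes in 15 (35.7%, against 37.4%). The Psmb10 window held none of the 5 motifs.

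Values were normalised read counts, as the study calls them. To compare genes of different length, each value was divided by exon length in kb and by the sum of all values, and multiplied by 1000000, which is called the level. The length was the union of all exons in GENCODE M21. Because some of these unions hold retained introns, the level over exons of RefSeq-linked transcripts is given beside it where it matters and is called the RefSeq level. The RefSeq level was the higher by more than 1.5-fold for 29 of the 50 genes, with a median ratio of 1.64.

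Detection was set at a value of at least 10, which all 50 genes reached and which held for 67.2% of all rows. A value of 100 or more was reached by 48 genes, against 51.6% of all rows. The exceptions were the tissue-restricted forms Psma8 (testis) at 55 and Psmb11 (thymus cortex) at 38. Together the 50 rows held 0.683% of the sum of 27569507. By level, 35 of the 50 genes were in the highest 10% of rows, against 10.0% of all 22906 rows with a length. These 35 comprised all 14 constitutive core genes, 15 of 17 genes of the 19S particle, Psmb10, Psme1, Psme2, Psme3, Psmg4 and Psmd10. The number was 29 without division by length and 34 on the RefSeq level. On the RefSeq level Psmb10 (29.8), Psme3 (25.3) and Psmd10 (24.2) fell under the cut of 32.0, while Psmb8 (42.1) and Psmd3 (44.3) passed it.

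**Figure D1:**
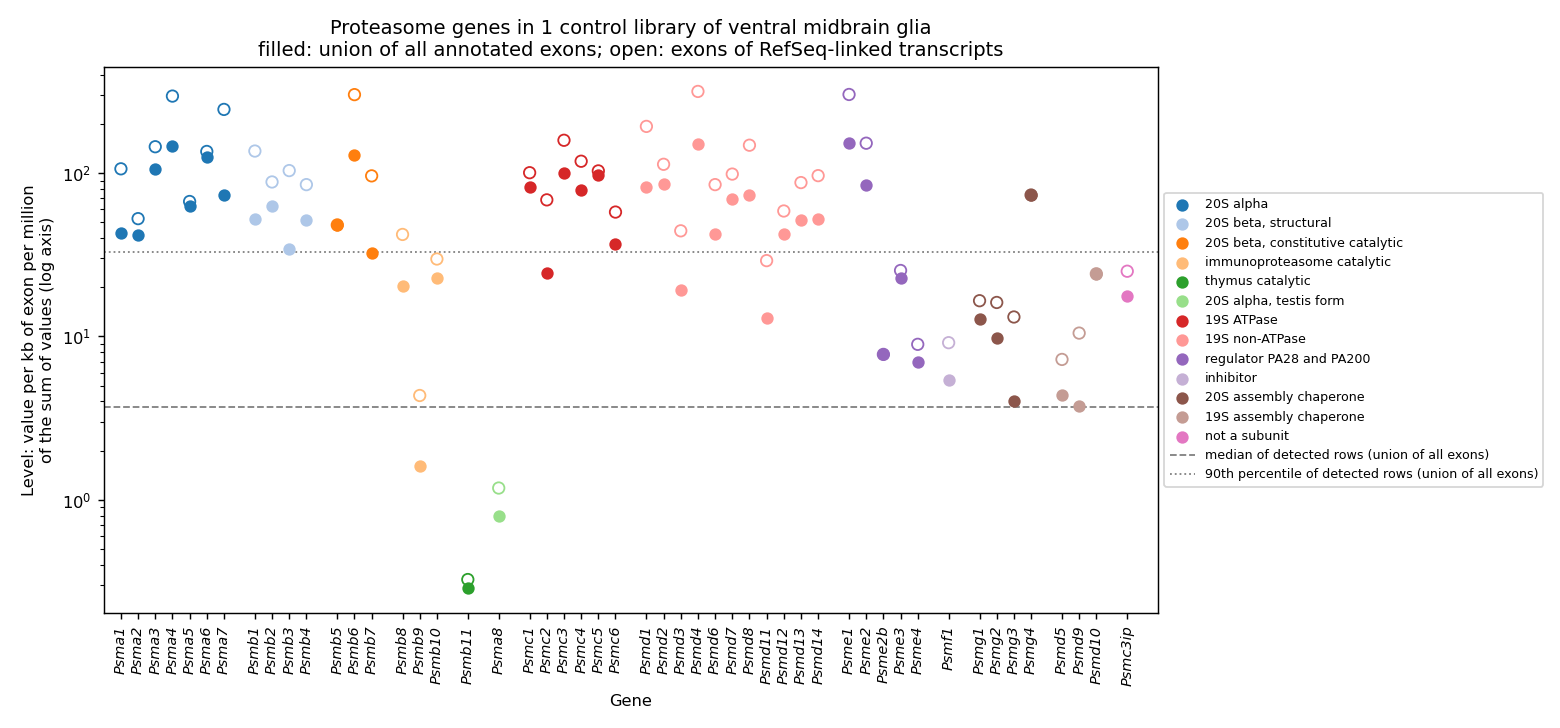
Level of each of the 50 genes in the control library, on a log axis, grouped by role; filled points divide by the union of all annotated exons and open points by exons of RefSeq-linked transcripts, and the lines mark the median (3.72) and the 90th percentile (33.0) of detected rows on the first scale. Most core and 19S genes lie high, although the 19S genes span 11.6-fold, down to Psmd11 at 13.0. Psmb9, Psma8 and Psmb11 lie lowest, at 1.61, 0.80 and 0.288.

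The alpha subunits form the outer rings, whose tails gate the entry to the barrel. Their 7 genes had levels between 41.7 and 146, with a median of 73.0. Psma4 had the highest level among them (value 9508, level 146), followed by Psma6 (value 4292, level 126) and Psma3 (value 11373, level 106). Psma7 was at a value of 6181 and a level of 73.0, and Psma5 at 2288 and 62.8. Psma1 (value 3515, level 43.2) and Psma2 (value 4221, level 41.7) were lowest. The order changed with the exon set, since on the RefSeq level Psma7 came second after Psma4 (245 and 296) and Psma2 remained lowest at 52.6. Psma8, which takes the place of Psma7 in male germ cells, was at a level of 0.80.

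The structural beta subunits were the most even group of more than 3 genes. Psmb2 was at a value of 2089 and a level of 62.9, Psmb1 at 6611 and 52.2, Psmb4 at 2771 and 51.5, and Psmb3 at 2187 and 34.5. The highest was 1.82 times the lowest on this scale and 1.61 times on the RefSeq level.

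The constitutive catalytic subunits differed more from one another, although a core holds equal numbers of each. Psmb6 had a value of 6648 and a level of 129. Psmb5 had a value of 1193 and a level of 48.1, and Psmb7 had a value of 3074 and a level of 32.6. Psmb6 was thus 2.68 times Psmb5 and 3.95 times Psmb7. It was also the highest on the RefSeq level (302), where Psmb7 (96.1) was above Psmb5 (48.1). Across all 14 constitutive core genes the standard deviation of log2 levels was 0.72, against 2.60 across detected rows, and on the RefSeq level it was 0.84 against 2.66.

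The immunoproteasome was compared with its constitutive counterparts at each site. The inducible forms were lower than their counterparts at all 3 sites on the level, but by very different amounts. Psmb8, the beta5 form, had a value of 1889 and a level of 20.3, against 48.1 for Psmb5. Psmb10, the beta2 form, had a value of 1076 and a level of 22.9, against 32.6 for Psmb7. Psmb9, the beta1 form, had a value of 162 and a level of 1.61, against 129 for Psmb6.

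As a share of each pair, the inducible form made up 29.6% of Psmb8 and Psmb5, 41.3% of Psmb10 and Psmb7, and 1.23% of Psmb9 and Psmb6. Psmb6 was 80.2 times Psmb9, while Psmb5 was 2.38 times Psmb8 and Psmb7 1.42 times Psmb10. Over the 3 sites together, 17.6% of the catalytic level was inducible, a sum in which Psmb6 (129) was the largest part. With the other lengths this pooled share ran from 14.6% (RefSeq level) to 22.3% (no division by length). The median of the inducible forms was 1.21 lower than that of the constitutive forms on the log2(level + 1) scale, which understates differences of low genes.

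**Figure D2:**
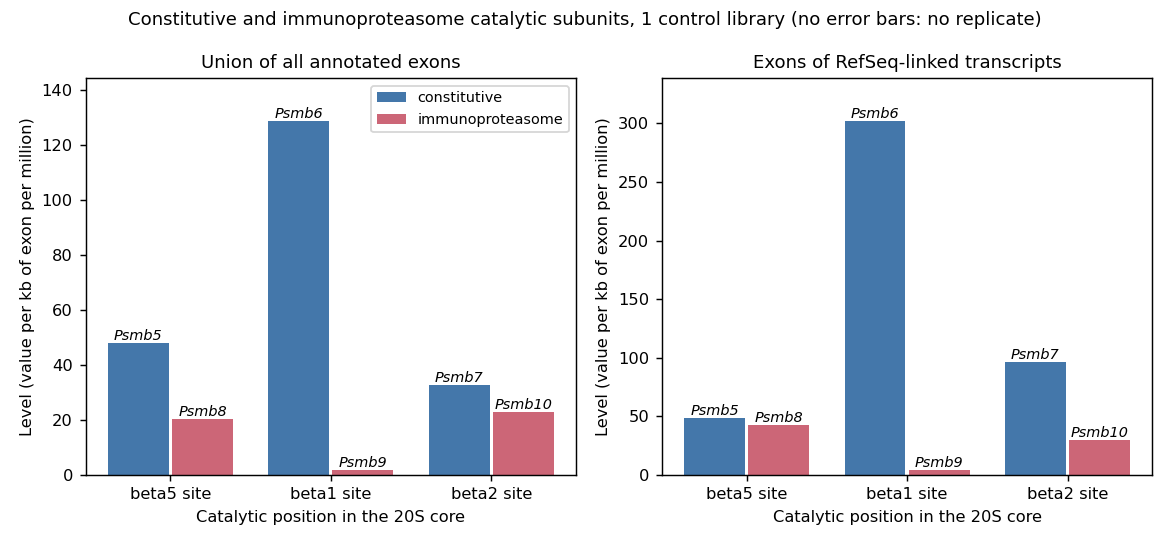
Bars give the level of the constitutive (blue) and inducible (red) subunit at each catalytic position of the 20S core, on both exon sets, without error bars because there was 1 library. Psmb9 reached 1.61 and 4.35 and stood far under Psmb6 on both sets, whereas Psmb8 and Psmb5 were close on the RefSeq level (42.1 and 48.1).

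The pairs responded differently to the length used. The low share of Psmb9 held throughout, from 0.810% with the longest transcript to 2.58% with coding length. The share of Psmb8 was 46.6% on the RefSeq level and passed the even share with coding length (60.2%) and without division by length (61.3%). The share of Psmb10 was 23.6% on the RefSeq level and 43.2% with the longest transcript. Whether Psmb8 or Psmb10 had the larger share therefore depended on the length. Among the inducible forms, Psmb9 was lowest with every length, with Psmb8 between 9.25 and 17.6 times as high. Exons of Psmb9 overlap Tap1 on the opposite strand over 212 bases, those of Psmb8 an antisense transcript, those of Psmb7 the kinase gene Nek6 and those of Psmb5 a microRNA precursor, and the strand setting of the counting was not given in the sources used here. With overlapping members left out, only Psmb10 and Psmb6 remained, and their difference was -2.44 on the log2(level + 1) scale.

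**Figure D3:**
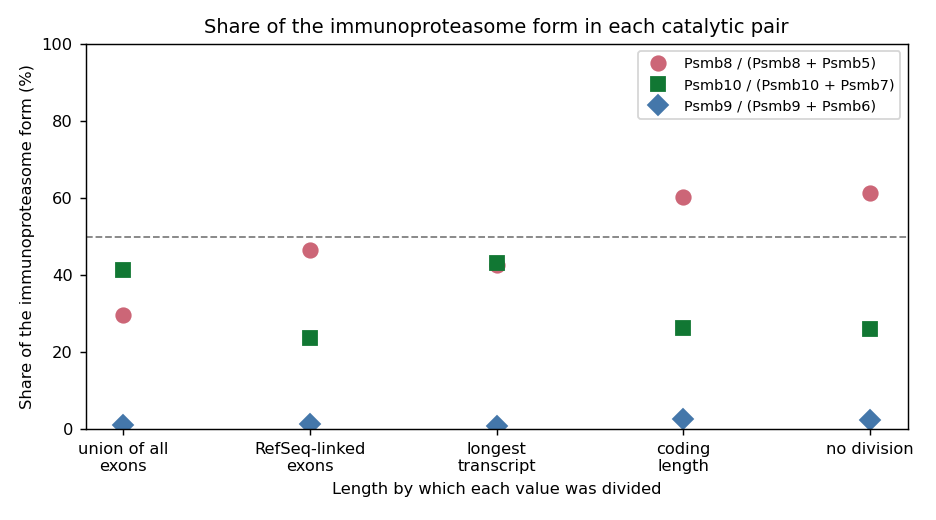
Share of the inducible form in each catalytic pair, in percent of the summed level of both forms, for 5 choices of length; the dashed line marks equal levels. Psmb9 stays between 0.810% and 2.58%, while Psmb8 runs from 29.6% to 61.3% and crosses the line.

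The pairs also differ in where their genes lie. Psmb9 and Psmb8 are neighbours in the histocompatibility region on chromosome 17 (GRCm38, 34181987 to 34187764 and 34197721 to 34201454) and run in opposite directions with 9.96 kb between them. Their levels were 1.61 and 20.3. Psmb10 lies apart on chromosome 8 (105935735 to 105938444). Psmb5 lies on chromosome 14 (54614119 to 54618022), 3.41 kb from Psmb11, the thymic beta5 form, which was at a level of 0.288. Psme1 and Psme2, 5.91 kb apart on the same chromosome, completed the 3 pairs of member genes within 20 kb. The 50 genes were spread over 16 chromosomes.

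The caps that can replace the 19S particle include a second interferon-inducible set. PA28αβ, encoded by Psme1 and Psme2, opens the core without ubiquitin or ATP, PA28γ (Psme3) does so in the nucleus, and PA200 (Psme4) acts on acetylated proteins and histones. Psme1 had a value of 9284 and a level of 152, the highest level of the 49 proteasome genes on this exon set. Psme2 had a value of 4100 and a level of 84.3. Psme3 was at a value of 1860 and a level of 22.9, and Psme4 at 1600 and 6.92. Psme1 and Psme2 were 6.66 and 3.69 times Psme3, and the median of both was 2.32 higher on the log2(level + 1) scale. The ratios depended on the length, with 11.96 and 6.02 on the RefSeq level and 4.99 and 2.20 without division by length, and both genes stayed above Psme3 with all 5 lengths. Psme3 over Psme4 ranged from 1.16 without length to 8.43 with coding length. By level Psme1 ranked 1 and Psme2 ranked 10 of 49, whereas the inducible catalytic subunits Psmb10, Psmb8 and Psmb9 ranked 34, 36 and 47. On the RefSeq level Psme1 ranked 2, Psme2 8, Psmb8 34, Psmb10 35 and Psmb9 47. The place of Psme2 depended on the length, since its value of 4100 was between the medians of core (3868) and 19S genes (4297).

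Psme2b, a retrocopy of Psme2 on chromosome 11 (48945354 to 48946190), had a value of 179. Its transcript was 99.4% identical to that of Psme2 over 794 bases, so reads could be assigned to either gene and both values are uncertain to that extent. No other pair of member transcripts aligned over more than 157 bases in the BLAST search, and none of the inducible catalytic forms was found aligned with its constitutive counterpart.

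The 19S particle starts with a ring of 6 ATPases that unfold the substrate. Psmc3 was highest (value 7161, level 99.6), then Psmc5 (value 3740, level 97.3), Psmc1 (value 4409, level 82.7) and Psmc4 (value 4691, level 78.7). Psmc6 had a value of 3554 and a level of 36.9, and Psmc2 a value of 3373 and a level of 24.3. The ATPases spanned 4.10-fold on the level and 2.75-fold on the RefSeq level, where Psmc6 was lowest at 57.7.

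The 11 non-ATPase subunits spanned 11.6-fold. Psmd4, a receptor for ubiquitin chains, had a value of 11686 and a level of 151, second among the 49 genes and first on the RefSeq level (316). The large base subunits Psmd2, which docks shuttle proteins, and Psmd1, a scaffold, had levels of 85.6 and 82.7 at values of 9525 and 16566. The value of Psmd1 was the highest of the 50, although its exons overlap Htr2b on the opposite strand. Psmd8, a lid subunit, was at a level of 73.3 and Psmd7, the partner of the deubiquitinase Psmd14, at 68.9. Psmd14, which removes ubiquitin chains as substrates enter, had a value of 4097 and a level of 52.7.

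The other lid subunits were lower. Psmd13 was at a value of 4795 and a level of 51.5, Psmd12 at 3075 and 42.1, and Psmd6 at 3249 and 42.1. Psmd3 was at 2623 and 19.2, and Psmd11, which clamps the lid to the core, was lowest at 2285 and 13.0. Psmd11 was also lowest of the 19S genes on the RefSeq level (29.1). The 17 genes of the particle had a median level of 68.9 and the 14 core genes one of 57.5, a difference of 0.26 on the log2(level + 1) scale that reversed on the RefSeq level (98.6 and 104.9). No direction is therefore given for 19S against core genes.

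Chaperones build the particles without staying in them. The 4 of the core had a median level of 11.3 and the 3 of the 19S base one of 4.39. Their range overlapped that of the subunits, since Psmg4 was above both subunit medians and Psmd10 above Psmd3 and Psmd11. These orders reversed on the RefSeq level. There Psmg4 (73.4) was under the medians of core (104.9) and 19S genes (98.6). Psmd10 (24.2) was under Psmd3 (44.3) and Psmd11 (29.1). Psmg1 and Psmg2, which pair to start the alpha ring, had values of 476 and 471 and levels of 12.8 and 9.83. Psmg3 and Psmg4, a second pair for the same ring, were unequal, with a value of 320 and a level of 4.01 for Psmg3 and a value of 1123 and a level of 73.4 for Psmg4. On the RefSeq level Psmg3 was at 13.1, and Psmg4 was 5.58 times as high there, against 18.3 times on the level. The annotated exons of Psmg3 cover 2893 bases in all and 883 in RefSeq-linked transcripts. Those of Psmg4 cover 555 bases, the shortest length of the 50 genes. Among chaperones of the 19S base, Psmd10 (gankyrin) was at a value of 979 and a level of 24.2, Psmd5 at 876 and 4.39, and Psmd9 at 750 and 3.75. Psmf1, the inhibitor-like protein PI31, had a value of 961 and a level of 5.41. Psmc3ip, not a proteasome gene, was at a value of 892 and a level of 17.8.

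Genes of the same pathway whose names lie outside the symbol pattern were examined from fixed lists. Counts of detected genes in these lists stand beside 67.2% of all rows. Of 10 further proteasome parts and partners, 9 had a row, all were detected and 6 were in the highest 10% by level. Sem1 (listed as Shfm1), a small 19S subunit, had a value of 12715 and a level of 130. Adrm1, a ubiquitin receptor, was at 4645 and 37.8, and Pomp, which matures the core, at 4737 and 32.9. Zfand5 was lowest by level (2008 and 6.77). The median level of the list was 25.8, under that of core and 19S genes.

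Nfe2l1 is the transcription factor that raises proteasome genes when proteasome activity is short. It had a value of 6565 and a level of 43.8. Ddi2, the protease that releases it from the endoplasmic reticulum, was at 1693 and 6.43, and Ngly1, which removes its sugars, at 471 and 2.26. The oxidative stress factor Nfe2l2 was at 3790 and 36.2, and Sqstm1, an autophagy receptor among its targets, at 22302 and 241. Of these 5 genes 3 were in the highest 10%. Exons of Ddi2, Ngly1 and Sqstm1 overlap other genes.

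Among 11 ubiquitin genes, activating enzymes and shuttle factors, Rps27a, which encodes ubiquitin fused to a ribosomal protein, was highest at a value of 24914 and a level of 458. Ubb, which encodes ubiquitin repeats, had a value of 6988 and a level of 151. Vcp came next by level, at a value of 12118 and a level of 90.6. Ubiquitin genes share ubiquitin-coding sequence, so their values are uncertain where reads fall in it. All 11 genes were detected and 6 were in the highest 10%. Ubqln4, a shuttle that carries substrates to the proteasome, was lowest (value 547, level 4.78).

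Genes that carry proteasome products to class I molecules spanned a wide range. B2m, the light chain of class I molecules, had a level of 1298, and the general chaperones Calr and Pdia3 had levels of 918 and 361. The peptide transporter gene Tap1, which shares its promoter region with Psmb9, was at a value of 772 and a level of 5.11, and Erap1, which trims peptides, was lowest at 1001 and 4.99. All 8 genes of the list were detected, and 5 were in the highest 10%. Exons of Tap1, Tap2, Tapbp, Erap1 and Pdia3 overlap other annotated genes.

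Of 7 genes of interferon-γ signalling, 5 were detected, against 67.2% of all rows. The 2 in the highest 10% were the receptor genes Ifngr2 (level 42.9) and Ifngr1 (level 33.5). Irf8 had a level of 21.7. Ifng itself was listed at 0 and Ciita, the class II activator, had a value of 2. Irf1 was at a value of 484 and a level of 4.42, and Nlrc5, an activator of class I genes and Psmb9, at 357 and 1.52. Exons of Irf1, Nlrc5, Ciita and Ifng overlap other annotated genes.

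**Figure D4:**
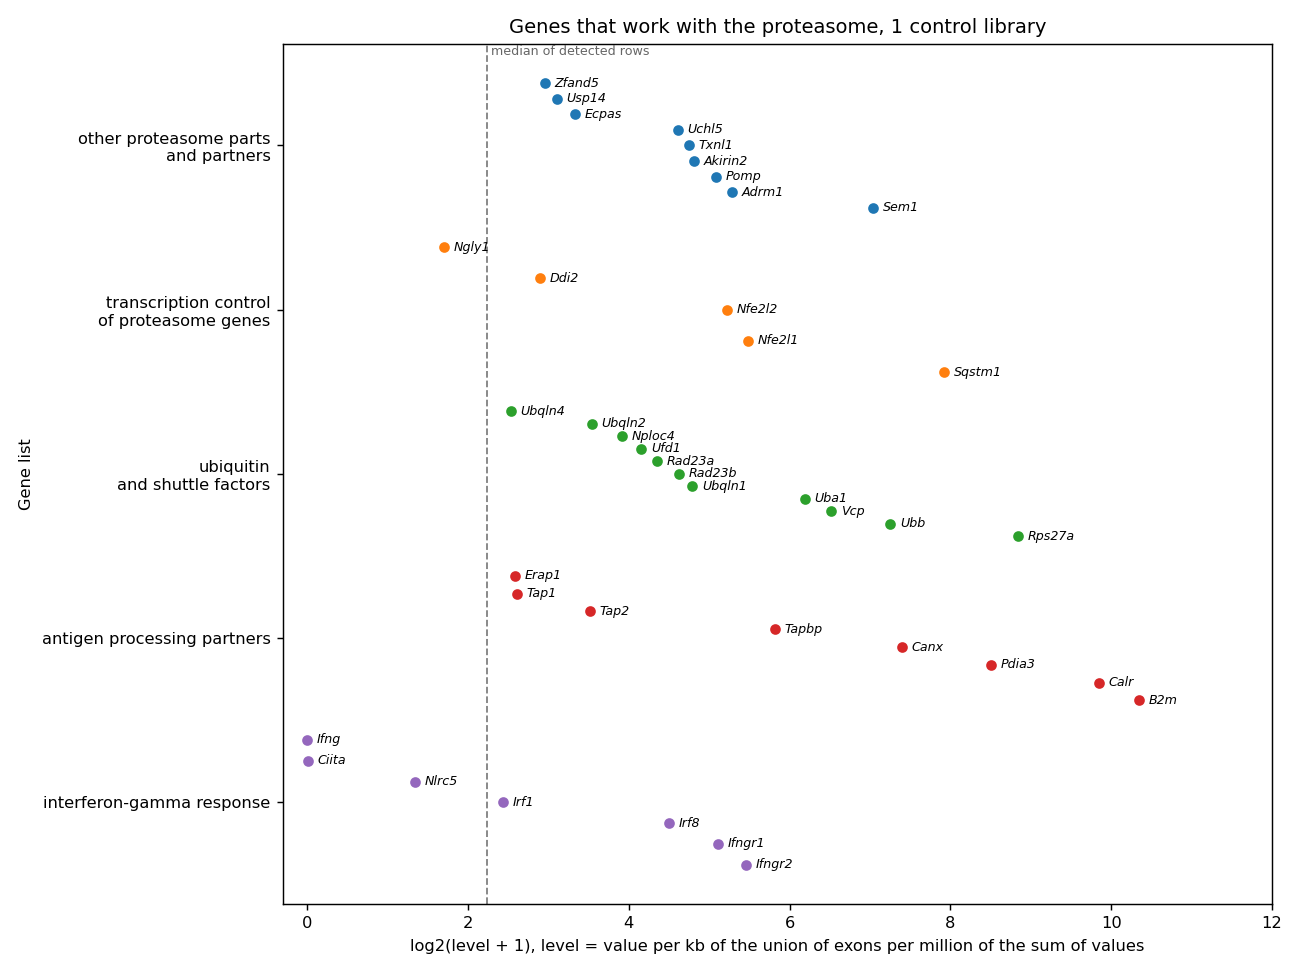
Level of the genes reported from the 5 further lists on the log2(level + 1) scale, with the median of detected rows (level 3.72) as a dashed line. B2m, Calr and Rps27a lie highest, and Ifng, Ciita, Nlrc5 and Ngly1 lie left of the line.

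The library came from mixed cells, and in bulk RNA fewer cells of a type and less RNA per cell cannot be told apart. Markers of glia were present, as the label states. All 6 microglia markers were detected, with values from 984 to 32619 (median 7101), as were all 6 astrocyte markers (604 to 17222, median 3786). All 6 mesenchymal markers (455 to 95749, median 12691.5) and all 6 markers of the oligodendrocyte lineage (48 to 16349, median 2312) were detected too. The median level of the mesenchymal markers (59.1) was above that of the astrocyte markers (24.8). Over all rows the detected share was 67.2%. Neuron and endothelial markers were each detected for 4 of 6 genes, with values from 0 to 3802 (median 53) and from 0 to 2427 (median 43.5). The highest were Stmn2 at 3802, whose level of 24.6 was in the highest 10% of rows, and Map2 at 868 for neurons, and Flt1 at 2427 for endothelium. Among neuron markers Syt1 had a value of 6 and Slc17a6 was listed at 0, and among endothelial markers Tek was listed at 0 and Cldn5 had a value of 3. Of 5 lymphocyte markers 2 were detected, Cd3d at 202 and Ms4a1 at 16, while Cd79a was at 9, Cd3e at 2, and Nkg7 was listed at 0. Which of these cells carried the inducible subunits was not tested.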

How the data were processed

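Total RNA of 1 control culture of VM-derived mixed glia was sequenced. The cells were grown in serum and subcultured before use, and the number of pups behind the library was not given in the sources used here. According to the methods of the study, the authors mapped trimmed reads to GRCm38/mm10 with STAR and counted reads on RefSeq exons with HTSeq-count. The processing notes of the submitters name TopHat and edgeR as well, and which of these tools made the deposited values is not clear. The deposited values are described by the authors as normalised read counts. The authors deposited them as whole numbers of unstated normalisation, a score here rather than counts, so the depth in reads is unknown and no interval or detection limit was computed. Treatment of reads that map to several places was not stated, and such reads can be lost or shared between copies.

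Members were found by symbol, and all 50 were matched to GENCODE M21 (GRCm38), as were 98.4% of all rows. This is not the annotation the authors counted on. Levels are value per kb of exon per 1000000 of the sum. A pseudocount of 1 was used for log2 differences. Alternatives were other lengths, a pseudocount of 0.1, means of log2 levels, other minima and totals, and removal of members with exon overlaps. The calculation was tested on simulated data. Transcripts were aligned with BLAST 2.17.0. Tables were handled with pandas 2.3.3 and numpy 2.4.6 under Python 3.11.15, and plots were drawn with matplotlib 3.10.9. By rule all members were named, and of the longer other lists the 3 highest, the lowest and any gene under the minimum. Members and lists were chosen with earlier results of these data known, and the exons of RefSeq-linked transcripts were added as an alternative after the data were seen. No unassigned column was present. Some genes of the other lists are not reported here and were left out of the counts and plots of those lists.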

Additional observations from a re-analysis of the deposited data

How the results depend on the processing

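A value was taken as unchanged when it moved by less than 1.5-fold. For a log2 difference this meant a shift of less than the log2 of 1.5. For a pair share the rule was applied to the ratio of inducible to constitutive form, not to the percentage. Of 43 recomputed values, 26 were unchanged, 11 moved by more than 1.5-fold in this sense and 6 changed sign or crossed the even share. The unchanged ones include alternatives that could hardly move a result. These were the added pseudogene values and the minima of 1 and 3, since the lowest member was at 38. The inducible minus constitutive difference (log2) was -2.45 with the mean of log2 levels and -2.44 without members that overlap other genes, and kept its sign under all 8 alternatives. The Psme1 and Psme2 minus Psme3 difference rose to 3.12 on the RefSeq level. The 19S minus core difference reversed to -0.011 with the longest transcript, -0.55 with coding length, -0.088 on the RefSeq level and -0.21 with the mean of log2 levels. The Psmb8 share was 42.7% with the longest transcript, 60.2% with coding length, 61.3% without length and 46.6% on the RefSeq level. For Psmb9 it was 0.810%, 2.58% and 2.38% with the first 3 of these, and for Psmb10 it was 26.2%, 25.9% and 23.6% with the last 3. These shifts follow from the lengths themselves, since the values are the same. Adding pseudogene values changed nothing by more than 1.5-fold, because only 1 pseudogene row, at a value of 1, was nearest to a member. No paired analysis was possible because there was 1 library.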

Other observations

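Near copies of member genes were counted in the reference. Among annotated pseudogenes, 39 were most similar to a member transcript (at least 80% identity over at least 200 bases), and they belonged to 19 of the 50 genes. Psmb3 had the most with 8, followed by Psma3 and Psma5 with 3 each. A copy of at least 95% identity existed for 8 genes. These were Psma3 (up to 100%), Psma4, Psma5, Psmb3, Psmb5 (98.9%), Psmc1, Psmd2 and Psmd11 (98.0%). Psmb8, Psmb9 and Psmb10 had no such pseudogene. The part of these copies in the values was not tested.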
